A study of Mus musculus with 6 samples.

Results

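The genes of the response to low oxygen were examined in the skin of C3H/HeJ mice, an inbred strain in which alopecia areata, an autoimmune hair loss, can arise spontaneously. The set held 10 genes, namely Car9, Vegfa, Slc2a1, Ldha, Pgk1, Bnip3, Adm, Ndrg1, Egln3 and Hif1a. Every probe set whose only gene symbol in the platform annotation was one of these was taken, which gave 24 of 45101 probe sets. Of the 10 genes, 3 had 1 probe set and 7 had several. No probe set was removed for a low signal. Total RNA was measured on 1 array per mouse, from affected skin of 3 mice with the phenotype Alopecia Areata (alopecic) and from skin of 3 unaffected mice. The animals shared the strain and the tissue, carried no allele or treatment named in the labels, and came as separate mice per group according to the series design. Age, sex, body site and hair cycle stage are not stated in the labels.

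Cells sense oxygen through hypoxia-inducible factor (HIF), a dimer of an oxygen-labile alpha subunit, such as the product of Hif1a, and the stable beta subunit encoded by Arnt. Prolyl hydroxylases of the Egln family mark the alpha subunit for destruction by the von Hippel-Lindau protein while oxygen is present. In low oxygen HIF accumulates and induces genes for glucose uptake, glycolysis, control of acidity, blood vessel growth and cell survival, among them Egln3 itself. Several of these genes also answer to cytokines or growth factors, and the hair-growing follicle is a glycolytic tissue.

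The set did not move as a block. Car9, Slc2a1 and Egln3 were 2.98-fold, 2.77-fold and 4.26-fold higher in alopecic than in unaffected skin (log2 differences 1.57, SE 0.13, 1.47, SE 0.35, and 2.09, SE 0.31, n = 3 each), and each alopecic array lay above each unaffected array. Vegfa was 1.60-fold higher, with groups separated by only 0.075 log2 units. In Ldha, Pgk1, Bnip3, Adm, Ndrg1 and Hif1a the arrays of the groups overlapped. Over the 10 genes the median log2 difference was 0.33, beside -0.01 over all 18193 genes. Without unaffected replicate 3 these medians were 0.62 and 0.0024. The genes were chosen by their place in the hypoxia response and by the log2 differences between these same groups, which were known beforehand, so their differences between alopecic and unaffected skin are descriptions and carry no test. In the limma fit over all 18193 genes, 1 of the 10, Car9, passed the threshold of 0.05 on the Benjamini-Hochberg adjusted p, where 0.275% of all genes passed. In 4 of the 10 the groups did not overlap, all with higher alopecic values, beside 6.93% of all genes that were higher without overlap and 13.1% without overlap in either direction. Nothing is read from these counts, because the contrast was used in choosing the genes.

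The values are relative log2 signals, so differences between arrays are comparable and levels of different probe sets are not. In whole skin, fewer cells of a type and less RNA per cell cannot be told apart. One control array stood apart. Unaffected replicate 3 correlated across genes at 0.906 and 0.929 with the other unaffected arrays, which correlated with each other at 0.981, and pairs of alopecic arrays lay between 0.972 and 0.988. In that array the mean log2 level of 14 hair shaft and root sheath keratins was 5.40, against 12.91 and 13.73 in unaffected replicates 1 and 2 and 11.09 to 11.87 in the alopecic arrays. Its 8 skeletal muscle markers had a mean level of 14.53, the highest of the 6 arrays. The 13 epidermal markers, Krt5 and Krt14 among them, had a mean level between 12.19 and 13.05 in every array. Such levels do not give the share of epidermis in a sample. Beta-actin control probes at the 3′ end read higher than those at the 5′ end, a sign of RNA quality, by log2 amounts that ran from 0.473 to 1.30 in alopecic and from 0.386 to 1.24 in unaffected arrays. Where leaving out unaffected replicate 3 turned the direction of a difference named here or moved it by over 1.5 times, the value without that array is given too.

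**Figure D1:**
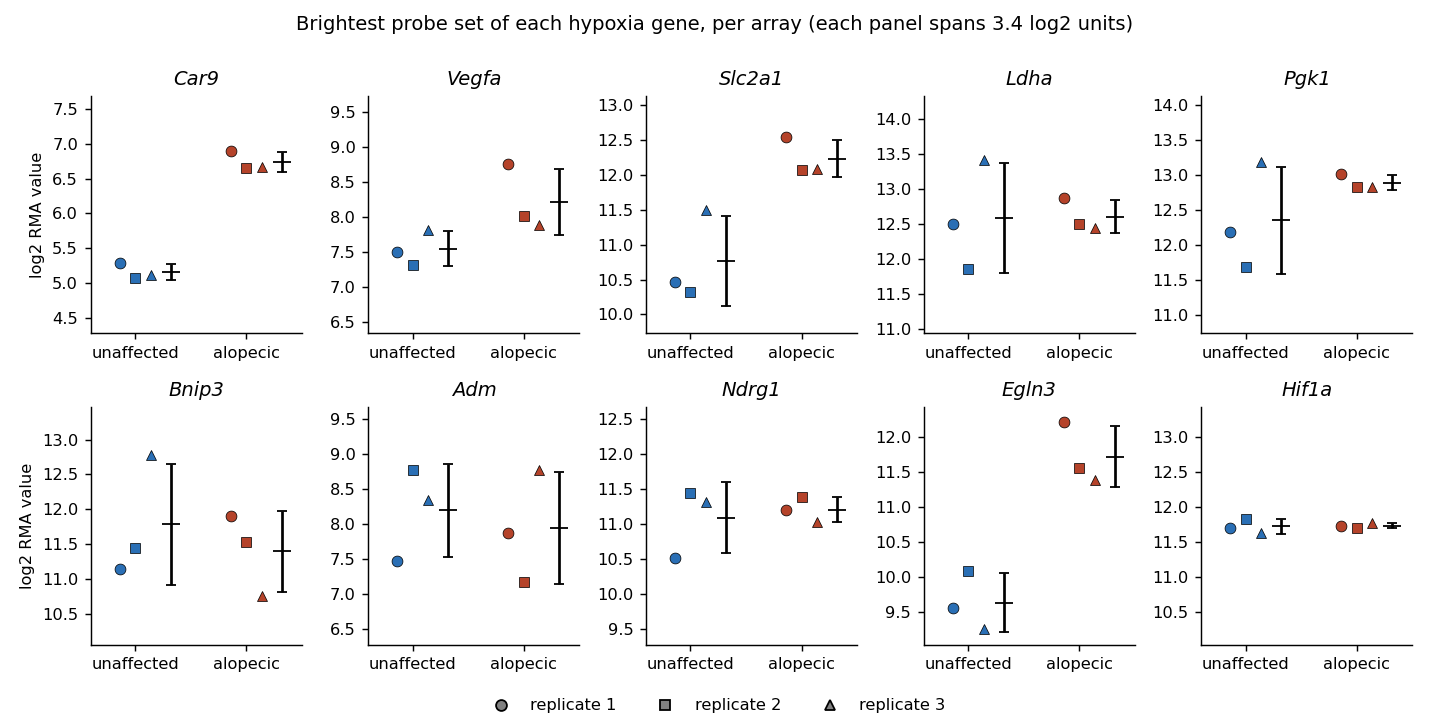
Log2 RMA value (y axis) of the brightest probe set of each of the 10 genes in 3 unaffected (blue) and 3 alopecic (red) arrays, with marker shape for the replicate and a bar for the mean and SD. Car9, Slc2a1 and Egln3 are clearly separated, and Vegfa is separated by 0.075. Unaffected replicate 3 is the highest of the 6 arrays for Ldha, Pgk1 and Bnip3, 3 of the 10, beside 29.1% of all genes.

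The promoters of the 3 clearly separated genes are shown with that of Ldha, a gene with overlapping groups, so that the presence of the HIF core can be compared with the behaviour of the genes. HIF binds a short core, searched here as ACGTG and GCGTG on both strands (CACGT and CACGC when read on the other strand). Capitals mark each match, and matches that overlap form 1 longer run. The windows, credited to RefSeq with build GRCm38.p6, cover 250 bases before to 50 bases after the annotated start, 5′ to 3′ on the strand of the gene. They are Car9 at chr4:43506776-43507075 (plus strand), Slc2a1 at chr4:119108495-119108794 (plus), Egln3 at chr12:54203825-54204124 (minus) and Ldha at chr7:46845554-46845853 (plus).
Car9: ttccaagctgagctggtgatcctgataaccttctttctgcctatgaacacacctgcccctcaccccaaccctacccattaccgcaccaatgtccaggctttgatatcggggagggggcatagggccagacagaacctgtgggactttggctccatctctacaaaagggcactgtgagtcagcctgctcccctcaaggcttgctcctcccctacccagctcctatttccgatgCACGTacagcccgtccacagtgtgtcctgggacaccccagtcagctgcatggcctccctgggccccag
Slc2a1: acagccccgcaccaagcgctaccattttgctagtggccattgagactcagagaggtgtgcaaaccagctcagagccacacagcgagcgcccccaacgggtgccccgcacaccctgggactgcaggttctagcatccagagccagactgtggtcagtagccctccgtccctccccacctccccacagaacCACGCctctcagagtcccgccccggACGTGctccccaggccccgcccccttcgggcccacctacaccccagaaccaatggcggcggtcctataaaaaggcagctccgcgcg
Egln3: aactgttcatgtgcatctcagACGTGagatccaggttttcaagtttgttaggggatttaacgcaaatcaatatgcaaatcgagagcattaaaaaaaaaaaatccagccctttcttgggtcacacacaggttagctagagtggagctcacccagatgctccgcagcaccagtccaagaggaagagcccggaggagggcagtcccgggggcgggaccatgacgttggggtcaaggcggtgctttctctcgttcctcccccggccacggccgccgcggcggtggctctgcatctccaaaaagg
Ldha: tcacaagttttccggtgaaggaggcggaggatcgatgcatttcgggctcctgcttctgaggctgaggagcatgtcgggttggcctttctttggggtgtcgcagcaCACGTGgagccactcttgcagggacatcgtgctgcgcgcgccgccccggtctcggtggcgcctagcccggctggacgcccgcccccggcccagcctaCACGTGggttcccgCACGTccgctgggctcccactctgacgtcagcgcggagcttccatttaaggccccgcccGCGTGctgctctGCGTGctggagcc
The Car9 window held 1 match, beginning 18 bases before the start. The Slc2a1 window held 2, at 61 and 36 bases before it, and the Egln3 window 1, at 229 bases before it. The Ldha window shown held 7 matches, the most of any window of the set, although its arrays overlapped between groups. These form 5 runs, because CACGTG matches once on each strand. The other Ldha window held 2 matches. Promoters were found for 9 of the 10 genes (not Ndrg1), as 11 windows, of which 10 held a match; the window without one was the upstream of the pair for Vegfa. Over all 32851 promoters of the table, 43.8% held at least 1 match and 20.6% at least 2. A match describes letters in the window and is not evidence of a bound site.

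Hif1a, the oxygen-regulated alpha subunit, had values of 11.73, 11.70 and 11.77 in alopecic replicates 1, 2 and 3 and 11.70, 11.83 and 11.63 in unaffected replicates 1, 2 and 3 on its brightest probe set. The arrays of both groups interleaved within 0.20 log2 units. The mean difference was 0.01 (SE 0.10), and -0.03 without unaffected replicate 3. The second probe set differed by 0.07, and by 0.03 without unaffected replicate 3. The other 2, whose signals lay below every array median at 3.82 to 4.86, differed by -0.18 and -0.06. HIF activity is set largely by the stability of the alpha protein, which an RNA array does not measure. 

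Egln3 encodes a prolyl hydroxylase that acts on HIF and is itself induced by it. Its brightest probe set read 12.22, 11.56 and 11.40 in the alopecic arrays and 9.56, 10.09 and 9.25 in the unaffected arrays. All alopecic arrays were above all unaffected ones, with 1.31 log2 units between the nearest arrays. The other probe set read 10.22, 9.94 and 9.62 against 7.71, 8.05 and 8.21, a difference of 1.93, or 3.82-fold. The gap there was 1.41 log2 units, so both probe sets separated the groups. Leaving out each array in turn gave differences from 1.84 to 2.32 for the brightest probe set. This was the largest difference among the 10 genes, and its SDs of 0.44 and 0.42 (n = 3 each) were above those of Car9. Egln3 did not pass the threshold over all genes.

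Of the 17 other measured genes of the HIF machinery 0 rose or fell. In the limma fit 1 had an unadjusted p under 0.05 with a higher and 2 with a lower alopecic mean, where 4.8% and 2.35% of all genes did. The median log2 difference was -0.05 (0.02 without unaffected replicate 3). The paralogous hydroxylases Egln1 and Egln2 differed by 0.25 (SE 0.40) and -0.09 (SE 0.23), and by 0.67 and 0.16 without unaffected replicate 3. Epas1, the alpha subunit best known from endothelium, differed by -0.18 (SE 0.22), Hif3a by -0.06 (SE 0.18) and the partner Arnt by 0.06 (SE 0.25). The von Hippel-Lindau gene Vhl differed by 0.41 (SE 0.16, adjusted p = 0.679) and Hif1an, the asparaginyl hydroxylase that blocks coactivator binding, by -0.22 (SE 0.48). Without that replicate Epas1, Arnt and Hif1an differed by 0.04, 0.32 and 0.33, so the sign of Epas1 and Hif1an rested on it. The elongins Elob and Eloc, which work with Vhl in a ubiquitin ligase, differed by -0.0023 and 0.01 (-0.11 and 0.02 without it). The largest difference of the list, named after its values were seen, was that of Cited2, a HIF-induced competitor for the coactivator p300, at -0.81 (SE 0.19, adjusted p = 0.392). Cited2 read 10.27, 9.82 and 9.63 in alopecic and 10.80, 10.77 and 10.57 in unaffected arrays, lower in each alopecic array.

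Car9 encodes carbonic anhydrase IX, a membrane enzyme that hydrates carbon dioxide outside the cell, and is among the most HIF-dependent genes known in human tumours. Its single probe set, 1427013_at, read 6.90, 6.65 and 6.66 in alopecic replicates 1, 2 and 3 and 5.30, 5.08 and 5.12 in unaffected replicates 1, 2 and 3. The groups lay 1.36 log2 units apart at their nearest arrays, with SDs of 0.14 and 0.12 (n = 3 each). Unaffected replicate 3, which departed widely in hair and muscle genes, lay between the other unaffected arrays for Car9, and the difference without it was 1.55. The range with each array left out in turn was 1.49 to 1.64. The unaffected signal was dim, below the lowest array median of 6.11, as was that of 34.2% of all genes. RMA compresses differences near background and no detection calls were used, so 2.98-fold is not an exact ratio, and no further Car9 probe set was there to compare.

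Among the 15 other carbonic anhydrases measured, 0 rose or fell and the median log2 difference was -0.08 (-0.13 without unaffected replicate 3, and from -0.27 to -0.02 over all single omissions). In the limma fit 1 had an unadjusted p under 0.05, with a higher mean, where 4.8% of all genes did. It was Car12, the other membrane carbonic anhydrase known as a hypoxia target. Car12 read 11.70, 10.23 and 10.99 in alopecic and 9.04, 10.36 and 8.38 in unaffected arrays, a difference of 1.72 (SE 0.60, adjusted p = 0.632). Unaffected replicate 2 lay above alopecic replicate 2, so the groups overlapped, unlike those of Car9. The brightest of the family, Car3 of muscle and fat, differed by -0.25 (SE 0.20), Car6, a secreted form, by -0.53 and the cytosolic Car2 by -0.08 (SE 1.06). Car2 spread from 7.08 to 10.53 within the unaffected group. Without unaffected replicate 3 Car3, Car6 and Car2 differed by -0.12, -2.06 and -0.93, and over all single omissions Car6 and Car2 took either sign.

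Slc2a1, the glucose transporter GLUT1, was higher on each of its 3 probe sets. The brightest read 12.54, 12.07 and 12.07 in the alopecic arrays and 10.46, 10.32 and 11.50 in the unaffected arrays. All alopecic arrays were above all unaffected ones, and unaffected replicate 3 was the closest of them, 0.58 log2 units below the lowest alopecic array. The other probe sets differed by 1.47 and 1.42, with gaps of 0.54 and 0.53. Without unaffected replicate 3 the brightest differed by 1.84, or 3.57-fold, and over all 6 omissions the difference ran from 1.25 to 1.84.

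Pgk1, the glycolytic phosphoglycerate kinase, read 13.01, 12.82 and 12.84 in alopecic and 12.18, 11.68 and 13.19 in unaffected arrays on its brightest probe set. On that probe set the alopecic arrays lay above unaffected replicates 1 and 2 and below unaffected replicate 3. The difference was 0.54 (SE 0.38) with all arrays and ran from 0.20 without unaffected replicate 2 to 0.96, or 1.94-fold, without unaffected replicate 3. Its other probe sets differed by 0.48 and 0.44, and by 0.79 each without unaffected replicate 3. Of the 3 probe sets, 2 carry the suffix _x_at, the brightest among them. In this array type it marks probes that may also bind other sequences. The brightest probe sets of Adm and Ndrg1 carry it too. On the Pgk1 probe set without the suffix, alopecic replicate 1 read 13.08, above the 12.93 of unaffected replicate 3. Ldha, the lactate dehydrogenase subunit that favours lactate production, read 12.87, 12.50 and 12.44 in alopecic and 12.50, 11.85 and 13.42 in unaffected arrays. The unaffected arrays enclosed the alopecic ones, and the difference of 0.01 (SE 0.40) became -0.35 without unaffected replicate 2 and 0.43 without unaffected replicate 3.

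Several marker lists followed the order of these glycolytic genes across arrays, with the highest count for skeletal muscle and Ldha. The mean log2 level of the muscle markers was 13.72, 12.97 and 12.44 in alopecic replicates 1, 2 and 3 and 13.36, 11.29 and 14.53 in unaffected replicates 1, 2 and 3, with all 8 markers higher in unaffected replicate 3 than in the mean of the other unaffected arrays. Ldha placed 14 of the 15 pairs of arrays in the same order as the muscle markers, and Pgk1 and Bnip3 placed 12. The median over all genes was 7, and 3.4% of all genes reached 14 and 11.3% reached 12. Endothelial markers shared the order in 12 pairs with Ldha and Bnip3 and in 10 with Pgk1, beside a median of 8 over all genes. Adipocyte markers shared it in 3 pairs with Ldha, 1 with Pgk1 and 5 with Bnip3, and hair keratins in 2, 2 and 4. The medians over all genes were 8 and 7. Both lists ran nearly the other way for Ldha and Pgk1, and less so for Bnip3. T and NK cell markers shared the order in 9 pairs with Ldha and Bnip3 and in 11 with Pgk1, beside a median of 7. Slc2a1, Car9 and Egln3 placed 9, 8 and 7 pairs in the order of the muscle markers. They placed 14, 13 and 12 in the order of the T and NK cell markers. Of all genes 1.18%, 3.31% and 6.86% reached those counts. With the interferon gamma response list the counts were 11, 12 and 15, reached by 14.2%, 7.99% and 0.302% of all genes. Both lists separate the groups, as those genes do. These orders were compared after the values were seen, and all genes share the same 6 arrays. The part of muscle, vessel, fat, hair or immune cell RNA in the result was not tested.

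**Figure D2:**
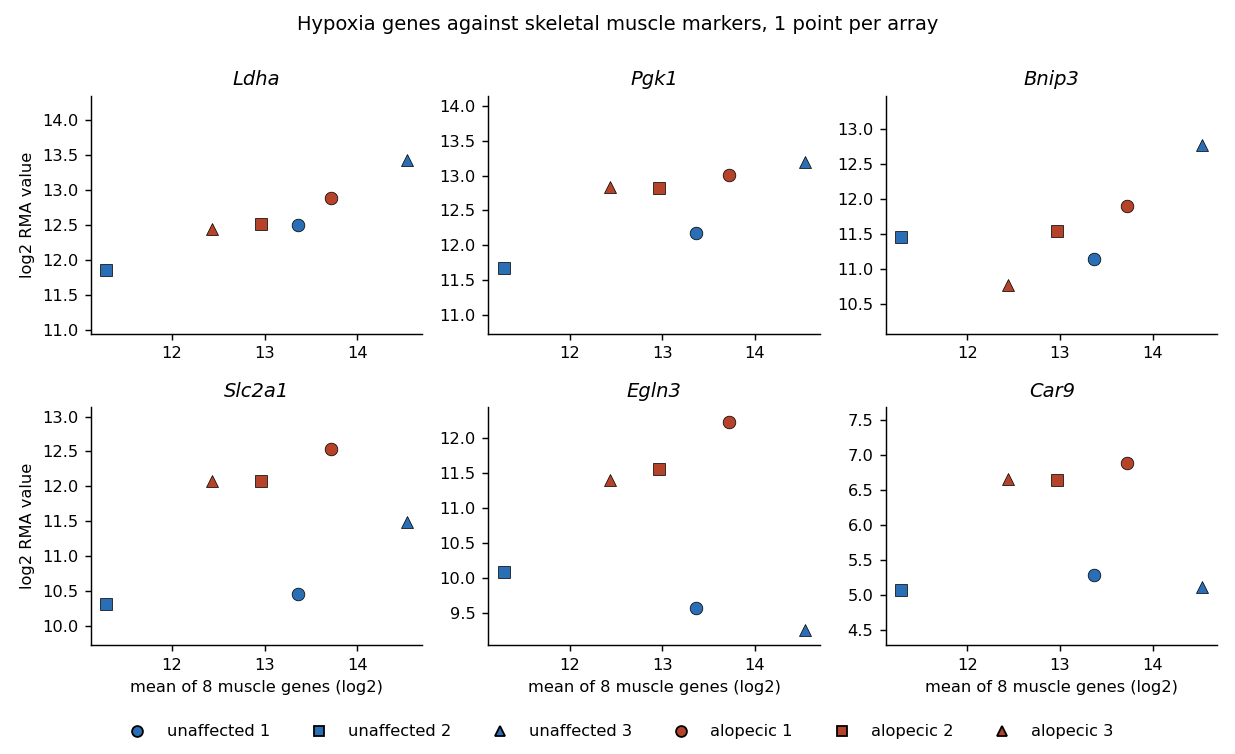
Log2 RMA value of 6 of the genes (y axis) against the mean log2 level of 8 skeletal muscle markers (x axis), 1 point per array, unaffected in blue and alopecic in red. Ldha orders 14 of 15 pairs of arrays as the muscle markers do, while Car9 and Egln3 fall into an upper alopecic and a lower unaffected level.

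The wider glycolytic targets were examined next. Of 19 measured genes other than the set, 0 rose or fell, and 5 had an unadjusted limma p under 0.05, all higher, where 4.8% of all genes were. Those 5 were also the genes without overlap between the groups, where 6.93% of all genes were higher without overlap. The median log2 difference was 0.38, and 14 of 19 means were higher in alopecic skin. Without unaffected replicate 3 the median was 0.61 and all 19 were higher. The median was 0.10 without unaffected replicate 2, 0.12 without alopecic replicate 1 and 0.15 without unaffected replicate 1, so its size rested on single arrays of both groups. In unaffected replicate 3, 15 of the 19 genes lay above the mean of unaffected replicates 1 and 2, by a median of 0.82.

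Phosphofructokinase, the committing enzyme of glycolysis, showed how isoforms differed. Pfkl, the liver-type subunit, named after its values were seen like Pfkp and Pfkm, read 9.23, 8.85 and 8.90 in alopecic and 7.72, 8.08 and 7.81 in unaffected arrays. Its groups did not overlap (difference 1.12, SE 0.16, adjusted p = 0.0965). The platelet-type Pfkp differed by 1.18 (SE 0.26, adjusted p = 0.323), also without overlap. The muscle-type Pfkm differed by -0.56, and by 0.52 without unaffected replicate 3, and stood 3.26 higher in unaffected replicate 3 than in the other unaffected arrays. Of the remaining genes fixed by role, the glucose transporter Slc2a3 differed by 0.66 (SE 0.26) and Pdk1, the kinase that shuts pyruvate out of the mitochondrion, by 0.49 (SE 0.22). Hexokinase Hk2 differed by 0.15 (SE 0.51), the lactate exporter Slc16a3 by 0.07 (SE 0.32), Ldhb by -0.35 (SE 0.47), and the bright enzymes Aldoa and Tpi1 by -0.13 and 0.0058. Without unaffected replicate 3 these 5 differed by 0.74, 0.41, 0.15, 0.23 and 0.49.

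Vegfa encodes the main growth factor of blood vessels. Its brighter probe set read 8.76, 8.02 and 7.89 in alopecic and 7.51, 7.32 and 7.81 in unaffected arrays. The groups were ordered but nearly touched, and the difference of 0.68 (SE 0.27) ran from 0.41 to 0.84 with 1 array left out. It was 0.41 without alopecic replicate 1, the highest array. The dimmer probe set overlapped, with a difference of 0.07 (0.04 without unaffected replicate 3) at values of 5.66 to 5.95. Adm, the vasodilator peptide adrenomedullin, read 7.88, 7.18 and 8.78 against 7.48, 8.78 and 8.34, and the spread within each group exceeded the difference of -0.26 (SE 0.51). The direction was not stable on this probe set, which carries the suffix _x_at. The difference was 0.13 without alopecic replicate 2, 0.04 without unaffected replicate 2, 0.34 with array weights and -0.67 without alopecic replicate 3. The other Adm probe set differed by -0.59, and from -0.99 to -0.02 over all single omissions, so its sign held there. Alopecic replicate 2 was the lowest array on both.

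Among 18 further ligands and receptors of these factors, 0 rose or fell, and the median log2 difference was -0.22. It was -0.01 without unaffected replicate 3, -0.03 without alopecic replicate 3 and -0.04 with array weights. In the limma fit 1 had an unadjusted p under 0.05 with a higher mean and 2 with a lower mean, beside 4.8% and 2.35% of all genes. The receptor Flt1 differed by 1.59 (SE 0.57, adjusted p = 0.64), reading 10.57, 8.45 and 9.48 in alopecic and 7.47, 7.76 and 8.50 in unaffected arrays, so that alopecic replicate 2 lay below unaffected replicate 3. The main signalling receptor Kdr differed by -0.14 (SE 0.32), and the coreceptors Nrp1 and Nrp2 by 0.03 and 0.27, with Kdr at 0.12 and Nrp2 at -0.33 without unaffected replicate 3. For adrenomedullin, the receptor Calcrl differed by -0.26 (SE 0.22) and its partner Ramp2 by -0.53 (SE 0.13, adjusted p = 0.437), with Ramp2 lower in each alopecic array. The 12 endothelial markers had a median difference of -0.17, which was 0.06 without unaffected replicate 3 with 8 of 12 then higher, and their mean level ran from 7.05 to 7.84 in alopecic and from 7.18 to 7.93 in unaffected arrays.

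Bnip3 encodes a mitochondrial protein that promotes removal of mitochondria in low oxygen. It read 11.90, 11.54 and 10.76 in alopecic and 11.14, 11.45 and 12.77 in unaffected arrays. Unaffected replicate 3 was the highest array, as it was for 29.1% of all genes. The difference of -0.39 (SE 0.51) was 0.11 without unaffected replicate 3, so its sign rested on that array. Omitting alopecic replicate 3 gave -0.07, and omitting unaffected replicate 1 gave -0.71. Ndrg1, a stress-induced gene of differentiating epithelium and of myelin, had 5 probe sets with differences from -0.23 to 0.12, and their groups overlapped in every case. The brightest, which carries the suffix _x_at, read 11.20, 11.38 and 11.03 against 10.51, 11.44 and 11.31. Its difference of 0.12 was -0.17 without unaffected replicate 1 and 0.23 without unaffected replicate 3.

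**Figure D3:**
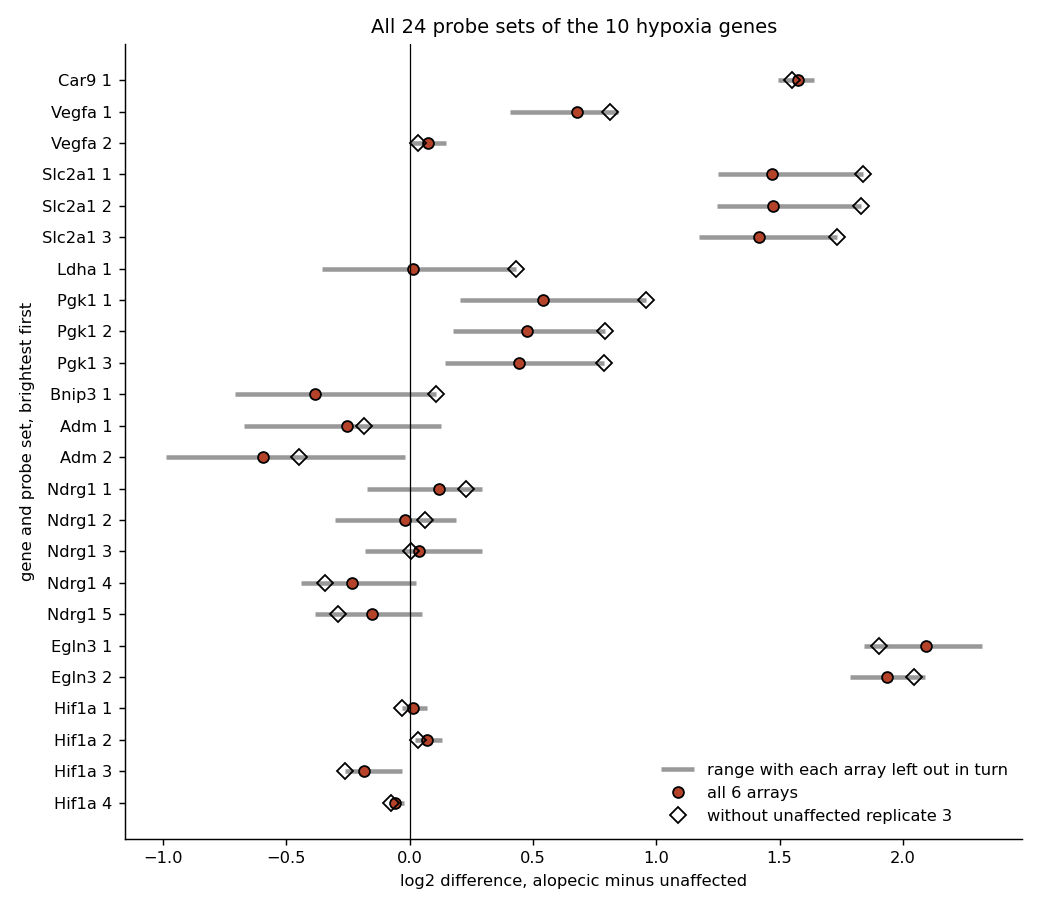
Log2 difference, alopecic minus unaffected (x axis), for each of the 24 probe sets (y axis, brightest first within a gene), with all 6 arrays (filled), without unaffected replicate 3 (open diamonds) and over all single omissions (grey bars). The probe sets of Slc2a1 and of Egln3 lie together and far from 0, while the bars of Ldha, Bnip3 and the brightest Ndrg1 probe set are among those that cross 0.

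Across the 24 probe sets, 16 had a higher and 8 a lower alopecic mean. In 7 the groups did not overlap, all of them higher, beside 5.54% of all 45037 probe sets other than controls, and these were the single Car9 probe set, the brighter of Vegfa, all 3 of Slc2a1 and both of Egln3. In a fit over those 45037 probe sets 1 of the 24, that of Car9, passed the threshold, where 0.142% of all did.

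The other hypoxia targets, 27 measured genes for survival, matrix, iron and stress, had a median log2 difference of 0.30, with 19 higher means. Of these 0 rose or fell, and 6 had an unadjusted limma p under 0.05, all higher, beside 4.8% of all genes. The 6 include Car12, which was also counted with the carbonic anhydrases. In 6 genes, Car12 not among them, the groups did not overlap, all with higher alopecic values, beside 6.93% of all genes. Omitting alopecic replicate 1 lowered the median to 0.18, and omitting alopecic replicate 3 raised it to 0.46. Ankrd37, a sensitive HIF target, read 8.21, 7.17 and 6.90 against 6.61, 6.85 and 6.75, a narrow separation with a difference of 0.69 (SE 0.35, adjusted p = 0.794). Mif, a cytokine gene induced by hypoxia, read 12.78, 12.62 and 12.67 against 12.29, 12.16 and 12.23, a difference of 0.46 (SE 0.10, adjusted p = 0.331). Tmem45a differed by 0.27 (SE 0.30) and Ddit4, an inhibitor of mTOR signalling, by -0.49 (SE 0.31), or 0.11 and -0.26 without unaffected replicate 3. Named after their values were seen, the mitochondrial Fam162a and the adenylate kinase Ak4 differed by 0.86 (SE 0.21) and 0.65 (SE 0.17), both without overlap. Of the 8 genes with a lower alopecic mean, Angptl4, named in the same way, differed most. Its difference was -0.88 (SE 0.61), with overlap, and -1.50 without unaffected replicate 3.

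**Figure D4:**
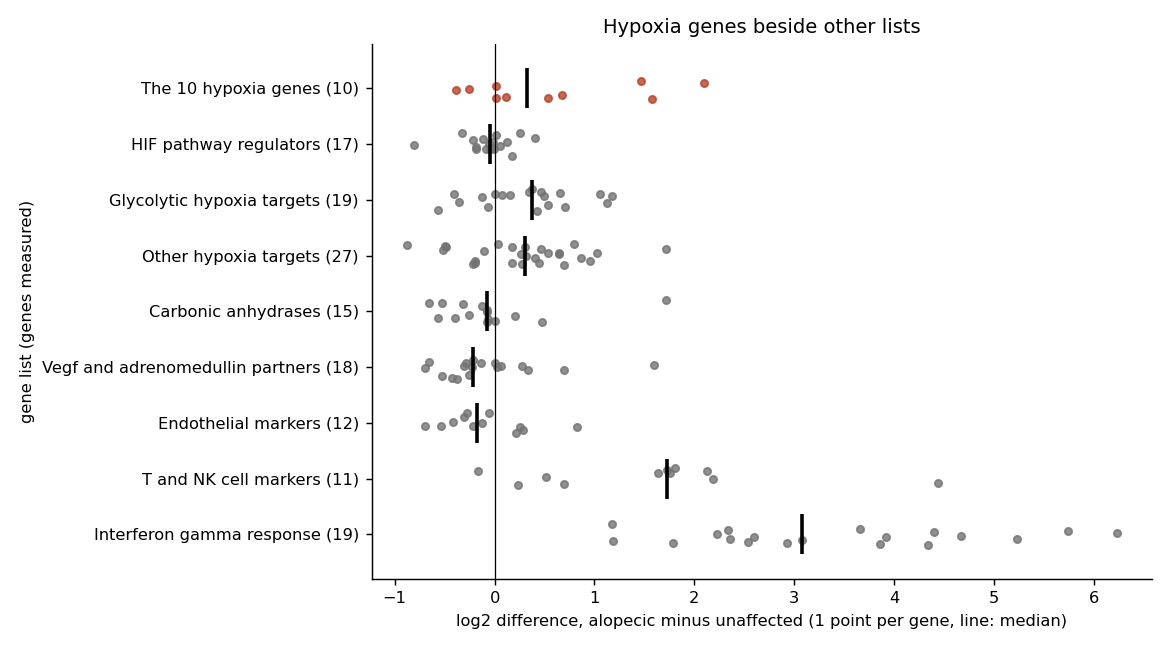
Log2 difference, alopecic minus unaffected (x axis), of each gene (points) in the 10 hypoxia genes and in 8 further lists (y axis, number measured in brackets), with the median as a line. The medians are 0.38 for glycolytic and 0.30 for other hypoxia targets, -0.05 for HIF regulators and 3.07 for the interferon gamma response.

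The pattern of Car9 over the arrays was compared with that of the 18192 other genes. The 10 genes with the highest Pearson correlation over the 6 arrays, from 0.994 to 0.998, were Oasl2, Gbp6, Gbp3, Parp14, Gbp7, Irgm1, Cxcl10, Serpinb9, Psmb9 and Parp9. Most are known as interferon-induced genes, and 5 of the 10 belong to the interferon gamma response list. Gbp6, a guanylate-binding protein, read 12.95, 12.59 and 12.41 in alopecic and 8.48, 8.29 and 8.16 in unaffected arrays, with the highest array of each group the same as for Car9. Such values mostly express the separation of the groups and are given as a description without a p. By the same measure Egln3 ranked 144, Slc2a1 423 and Vegfa 862, whereas Pgk1 ranked 2897, Ldha 8140 and Bnip3 12359. When the deviations from the group means were compared instead, the 5 most alike were Tmppe, Ctcflos, Oaf, Rgs19 and Ifnar1, each at 0.995 or more, none of which passed the test between groups.

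Of 19 measured genes of the interferon gamma response list 13 rose, where 0.264% of all genes did, and the median log2 difference was 3.07. The largest were those of the chemokines Cxcl9, Cxcl11 and Cxcl10 and the GTPase Iigp1, at 6.23, 5.74, 5.23 and 4.66. Of 11 measured T and NK cell markers 0 rose or fell, and 9 had an unadjusted limma p under 0.05, all higher, beside 4.8% of all genes. In 10 the alopecic mean was higher, the median difference was 1.73, and their mean level ran from 7.64 to 8.77 in alopecic and from 6.42 to 6.62 in unaffected arrays. Alopecic replicate 1 was the highest array for these markers and, within the alopecic group, for 7 of the 10 hypoxia genes. The share over all genes was not counted, so nothing is read from that count. By mean level alopecic replicate 1 was also the highest alopecic array for the macrophage, epidermal, skeletal muscle and interferon gamma response lists. For the endothelial, hair keratin and adipocyte lists another alopecic array was the highest. The part of T and NK cells in the higher Car9, Slc2a1 and Egln3 values was not tested.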

How the data were processed

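RNA from 6 skin samples was measured on 1 array each. Values on the log2 scale, deposited by the authors for each probe set, were made with RMA per the submitters' processing notes. RMA subtracts background, puts arrays on a common distribution and combines the probes of a set. Which software ran it was not recorded there. Values ran from 3.07 to 14.92 and were used as deposited.

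Probe sets with 1 gene symbol in the platform annotation (34945) were kept for the gene test, symbols were updated through RefSeq gene IDs (34741 matched), and the probe set with the highest mean stood for each of 18193 genes. Groups were compared by the moderated two-sided test of limma (version 3.58.1, under R 4.3.3), with Benjamini-Hochberg adjustment over all genes and a threshold of 0.05; "rose" and "fell" mean past it. All adjusted p-values come from that fit unless array weights are named. A second fit covered all 45037 probe sets other than controls. Both fits were tested on simulated data or share that code. An array has no read depth; 3 arrays per group limit the precision. No 2 arrays shared more than 92 identical values. Errors are SEs of the gene fit or SDs over 3 arrays.

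The members and the 13 gene lists (200 entries, 189 measured; the others were not analysed here) were chosen with earlier results of these data known. Genes named are the 10 members, the genes most like Car9 (10 over arrays, 5 within groups), from each list of pathway genes up to 4 past the threshold or the 2 brightest, and genes fixed by role. Cited2, Pfkl, Pfkp, Pfkm, Fam162a, Ak4 and Angptl4 fall outside that rule and were named after their values were seen. Alternatives changed the probe set per gene, the filter, centring, variance model, array weights, replicate block and the arrays used. Replicate numbers were not taken to pair the arrays, because each is a separate mouse and the labels state no pairing. Deviations of same-numbered arrays correlated at -0.13, -0.20 and -0.33 across genes. These values cannot settle whether mice were matched, because the deviations within so small a group depend on each other.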

Additional observations from a re-analysis of the deposited data

How the results depend on the processing

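The differences of the 10 hypoxia genes moved by less than the spread between replicates under all alternatives but 1: with the most variable probe set per gene, Hif1a was represented by a dim probe set at -0.18. Most alternatives could not have shown more. Leaving out 1 of 3 arrays moves a group mean by less than the SD of that group. The filter, the variance model and the replicate block leave the difference of a kept gene as it is. Moves within the spread still turned the sign of Ldha, Bnip3, Adm, Ndrg1 and Hif1a in at least 1 alternative. The call of Car9 held in 6 of the 12 alternatives that kept it and, of the single omissions, only without unaffected replicate 3. The 6 include the most variable and the averaged probe sets, which leave the values of Car9 unchanged because it had 1 probe set. The filter to genes above the median mean dropped Car9. Slc2a1 and Egln3 also passed with array weights, and Egln3 with probe sets averaged. The number of genes that rose, 48, ran from 4 to 34 with 1 array left out (alopecic replicates 1, 2 and 3 omitted gave 33, 14 and 17, and unaffected replicates 1, 2 and 3 omitted gave 7, 4 and 34). The number that fell, 2, ran from 0 to 5, with 5 without unaffected replicate 3 and 0 in each other omission. With array weights 126 rose and 13 fell, and 1 glycolytic target (Pfkl) was called. With the replicate block 0 rose and 0 fell, and the labels do not state whether the numbers pair animals. The cause of these changes was not tested. Counts of the other pathway lists stayed at 0 and the list medians moved by less than the spread in all alternatives. The variance model and the replicate block leave these medians as they are. By Spearman correlation the lowest value among the 10 genes most like Car9 was 0.886 instead of 0.994. Dim signals limit Car9, the fainter Vegfa probe set and the fainter pair for Hif1a.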
